A study of Mus musculus with 12 samples.

Results

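Ifi202b, Ifi203, Ifi204 and Ifi211 are 4 interferon-inducible genes of the Ifi200 cluster on mouse chromosome 1, out of 17718 genes in the count table. They were chosen by name as members of the PYHIN family with their lower counts in Mll3 knock-out libraries already known, so their own values in that comparison are given as a description, without a test. Messenger RNA was sequenced from cultured CT26 cells, a mouse colon carcinoma line of the BALB/c strain. The line carried either wild-type Mll3 (also named Kmt2c, a histone H3 lysine methyltransferase) and no treatment, or an Mll3 knock-out, with 3 libraries per genotype and 1 batch date for all 6. The 3 knock-out columns have names that begin with a short form usual for single guide RNA, and whether they are guides, clones or pools is not given in the sources used here. The series asks how MLL3 mutation relates to immunotherapy, and 6 of its 12 samples (CUT&Tag and single-cell libraries) were not analysed here.

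PYHIN proteins pair a pyrin domain, which binds other pyrin domains, with a HIN domain, which binds DNA. In mice the family is encoded side by side in 1 cluster, is induced by interferons, and is known from myeloid cells and fibroblasts as nuclear regulators of growth and as sensors of cytosolic DNA. Interferon receptors signal through JAK kinases to transcription factors that bind the interferon-stimulated response element (ISRE) in promoters. The number and sequence of these genes differ between mouse strains, and the counts come from BALB/c cells with the mm10 build, which represents C57BL/6J.

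The promoters are shown first because a short element recurs in them. RefSeq windows of GRCm38.p6, the assembly of mm10, run from 250 bases before to 50 after each start, and 12 of the 14 listed PYHIN genes had at least 1 window. The 160 bases just before the start are printed for 3 members, for Mndal and Ifi207, whose differences lay within and beyond the range of the members, and for Aim2, which had a smaller one. Capitals mark an ISRE core (GAAA, then any 2 bases, then GAAA again) or, in Ifi202b, the STAT site motif TTCNNNGAA.
Ifi203 (downstream start), chr1:173942493-173942652, minus strand: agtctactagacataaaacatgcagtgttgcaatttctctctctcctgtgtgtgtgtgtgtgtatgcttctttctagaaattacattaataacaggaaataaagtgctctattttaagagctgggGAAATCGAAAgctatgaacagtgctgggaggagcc
Mndal (upstream start), chr1:173880188-173880347, minus strand: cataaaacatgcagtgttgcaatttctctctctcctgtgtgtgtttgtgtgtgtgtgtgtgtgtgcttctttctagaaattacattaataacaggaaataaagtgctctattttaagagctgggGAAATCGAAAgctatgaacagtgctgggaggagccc
Ifi211, chr1:173913047-173913206, minus strand: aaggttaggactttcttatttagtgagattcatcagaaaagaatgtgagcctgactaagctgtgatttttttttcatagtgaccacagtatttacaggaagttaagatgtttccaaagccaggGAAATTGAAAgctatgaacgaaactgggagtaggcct
Ifi207, chr1:173741810-173741969, minus strand: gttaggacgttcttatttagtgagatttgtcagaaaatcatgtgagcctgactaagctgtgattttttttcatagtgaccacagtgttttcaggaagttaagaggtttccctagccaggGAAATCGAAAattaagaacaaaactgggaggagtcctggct
Ifi202b, chr1:173982845-173983004, minus strand: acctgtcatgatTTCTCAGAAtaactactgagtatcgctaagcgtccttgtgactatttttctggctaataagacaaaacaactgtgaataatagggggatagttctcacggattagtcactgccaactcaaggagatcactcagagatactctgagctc
Aim2, chr1:173420444-173420603, plus strand: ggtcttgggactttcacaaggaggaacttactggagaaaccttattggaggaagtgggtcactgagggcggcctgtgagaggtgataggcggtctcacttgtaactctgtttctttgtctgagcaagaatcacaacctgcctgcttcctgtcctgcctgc

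An ISRE core on either strand was present in the windows of 9 of the 12 PYHIN genes with a window, against 3.99% of all 27025 genes with a window. By window these were 10 of 14 against 3.44% of 32851. Several of these windows are alike in sequence, so they do not count as separate occurrences of the core. The core began 35 bases before the downstream start of Ifi203, 37 before that of Ifi211, 36 before the upstream start of Mndal and 41 before that of Ifi207. Over the 30 bases that begin with the core, Mndal matched Ifi203 at 30, Ifi211 at 25 and Ifi207 at 24. Ifi206, Ifi208, Ifi213 and Ifi214 also held the core, between 40 and 79 bases before the start, and Ifi205 held it 134 bases before. The windows of Ifi202b, Aim2 and Ifi209 held none, and neither did that of the upstream start of Ifi203. Which start of Ifi203 these cells use was not examined. The window of Ifi209 matched the core of Ifi203 at 9 of 10 bases, 79 bases before its start, with the substitution G1T (counted from 1 at the 5′ end of the core, Ifi203 base first). In Ifi202b, Aim2 and the upstream window of Ifi203 the best match was 6 of 10 bases, on the strand of the gene and before the start. Near matches on the other strand were not searched for. TTCNNNGAA, which is its own reverse complement, was found in 1 of the 12 genes, Ifi202b, 148 bases before the start, and in 9.55% of all genes with a window. TGANTCA, a form of the AP-1 motif with any middle base and also its own reverse complement, was found in Ifi203, Mndal and Ifi209. That was 3 of the 12 genes, against 8.97% of all genes with a window. The letters were TGATTCA in Ifi203, TGATTCA at the upstream and TGAGTCA at the downstream start of Mndal, and TGACTCA in Ifi209. These matches describe letters of the C57BL/6J reference and not binding. The BALB/c sequence of these windows, that of Ifi202b included, was not read. Presence or absence of a motif in CT26 cells is therefore not shown.

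**Figure D1:**
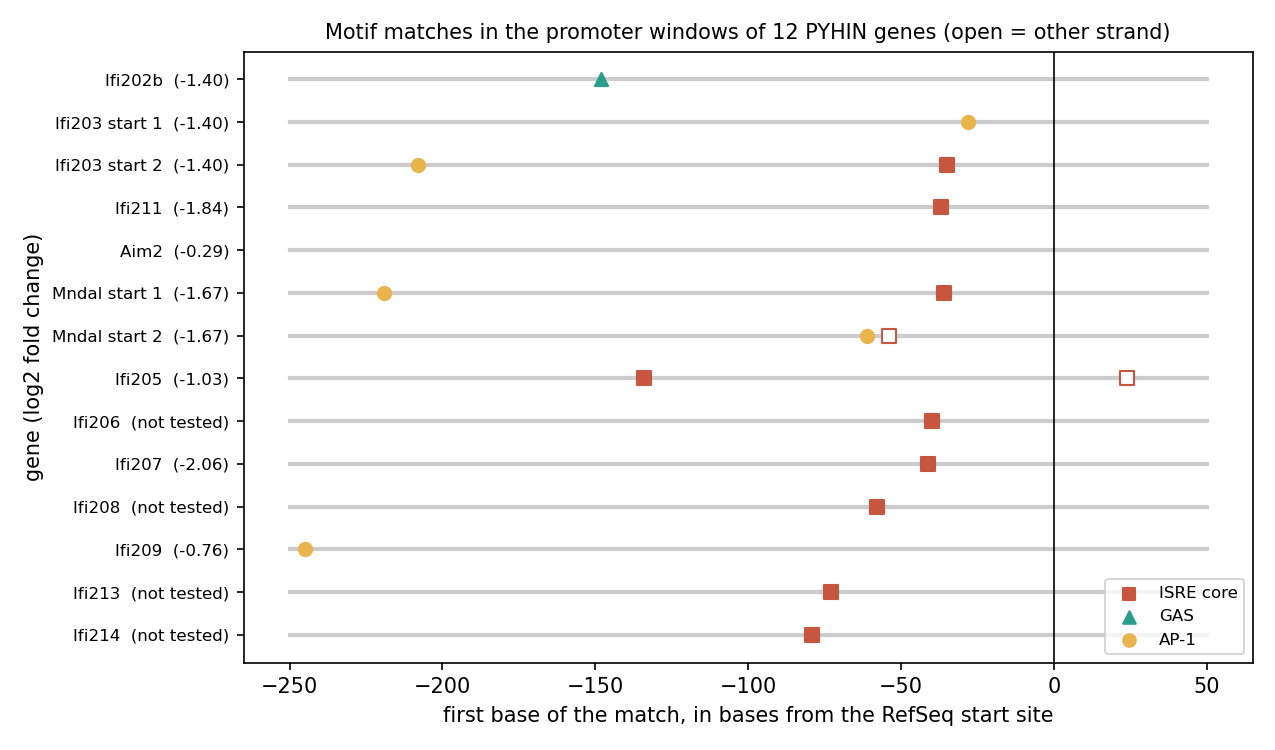
Each line is 1 promoter window from 250 bases before to 50 after a RefSeq start site, with the log2 fold change (knock-out over wild-type) of the gene in brackets; squares mark ISRE cores, triangles TTCNNNGAA and circles TGANTCA, with open symbols for the other strand. The ISRE squares lie between 35 and 79 bases before the start in 8 genes. Ifi202b, Aim2, Ifi209 and the upstream start of Ifi203 have none.

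Ifi202b encodes p202, which carries HIN domains without a pyrin domain and is known to hold DNA away from AIM2. Its level was 523, 505 and 458 CPM (counts relative to the library total, scaled for composition with TMM factors) in wild-type libraries 1, 2 and 3. The knock-out libraries, here and below in the order of their columns, stood at 181, 199 and 184 CPM. All wild-type libraries were above all knock-out libraries, and the lowest wild-type value was 2.30 times the highest knock-out value. Group means were 495 ± 33.4 and 188 ± 9.63 CPM (SD, n = 3 each), a log2 fold change of -1.40 (SE 0.0440), or 2.63-fold lower. Here and below, a fold change sets the knock-out against the wild-type and comes from the edgeR fit over all genes. In bulk libraries, fewer cells that express a gene and less RNA per cell cannot be told apart.

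Ifi203, a nuclear family member with both domain types, stood at 474, 458 and 406 CPM in wild-type and at 160, 178 and 171 CPM in knock-out libraries. The groups did not overlap. Its means were 446 ± 35.6 and 169 ± 9.13 CPM (SD, n = 3 each), with a log2 fold change of -1.40 (SE 0.0478).

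Ifi204 encodes p204, a regulator of the retinoblastoma protein and of Id proteins and a DNA sensor upstream of STING, often set beside human IFI16. Wild-type libraries held 244, 230 and 227 CPM of it, and knock-out libraries 73.8, 64.3 and 76.2 CPM. The knock-out libraries were all lower, with the second of them lowest. Means of 234 ± 9.24 and 71.4 ± 6.32 CPM (SD, n = 3 each) gave a log2 fold change of -1.72 (SE 0.0540), 3.28-fold lower.

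Ifi211 was the least abundant in counts, at 43.0, 45.4 and 35.8 CPM in wild-type and 12.04, 10.7 and 12.1 CPM in knock-out libraries. Its groups did not overlap either, though wild-type library 3 lay below the other two. From 41.4 ± 4.99 to 11.6 ± 0.780 CPM (SD, n = 3 each), the log2 fold change was -1.84 (SE 0.116), 3.57-fold lower.

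**Figure D2:**
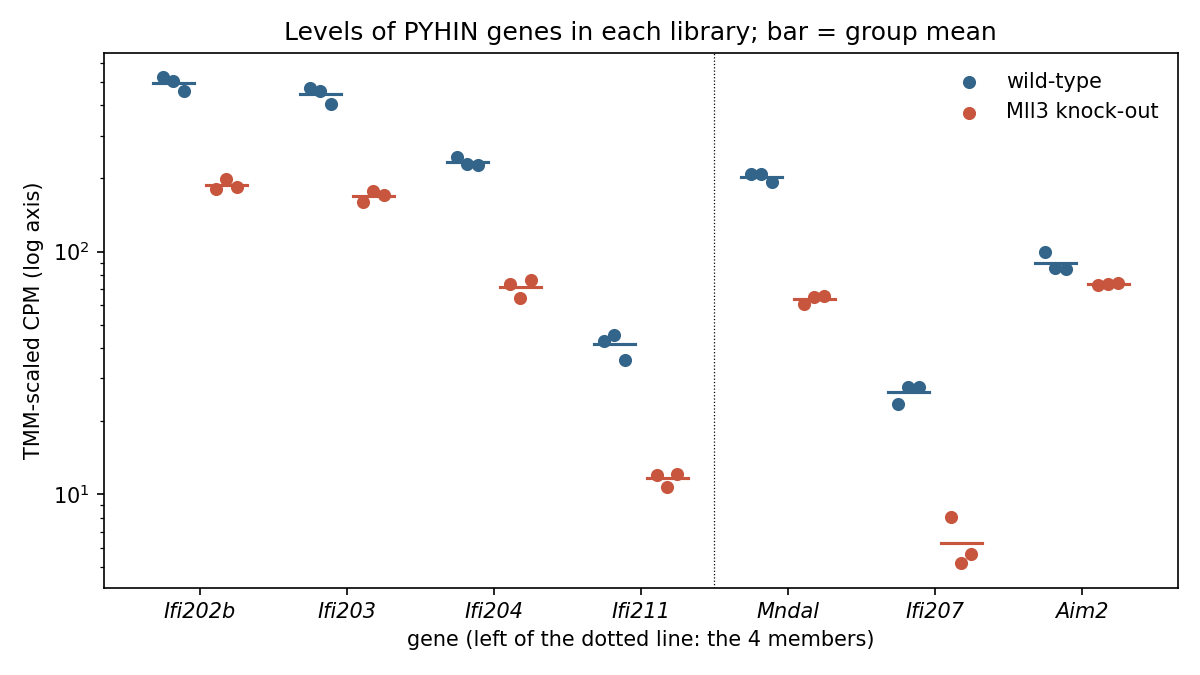
Points are single libraries in TMM-scaled CPM on a log axis, 3 wild-type (blue) and 3 knock-out (red) per gene, and bars are group means. In the 4 members, Mndal and Ifi207 the groups are far apart, with means of 495 and 188 CPM in Ifi202b, while Aim2 has 89.7 and 73.5 CPM.

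The members were past the threshold in 4 of 4 cases, all lower, and nothing is read from that count because these values chose them. In the same fit, 66.2% of 13013 genes tested were called at an edgeR adjusted p under 0.05, 33.1% higher and 33.2% lower in the knock-out, and for 34.3% every wild-type library was above every knock-out library. Of all tested genes, 1.92% had a lower log2 fold change than Ifi202b, 1.94% than Ifi203, 1.21% than Ifi204 and 1.05% than Ifi211. All 4 passed the filter on low counts.

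Counts of Ifi203 kept nearly the same ratio to those of Ifi202b in both groups, unlike counts of Ifi204 and Ifi211. For every 100 counts of Ifi202b there were 88.1 to 93.2 counts of Ifi203 in all 6 libraries, with means of 90.02 ± 1.20 in wild-type and 90.2 ± 2.70 in knock-out (SD, n = 3 each). Counts of Ifi204 per 100 of Ifi202b were 46.8, 45.6 and 49.6 in wild-type and 40.7, 32.3 and 41.5 in knock-out libraries. Those of Ifi211 were 8.23, 8.99 and 7.82 against 6.65, 5.39 and 6.59. Both ratios were lower in each knock-out library than in any wild-type one, and lowest in the second. Levels of different genes are not compared, because transcript lengths were not used here.

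Paralogs of this cluster are alike in sequence, and how reads that match several genes were counted is not given in the sources used here, so the split of reads between them is uncertain. A sum over the members does not depend on that split among them. It can still depend on reads shared with other PYHIN genes or left uncounted. Summed, the members stood at 1284, 1239 and 1127 CPM in wild-type and at 427, 452 and 443 CPM in knock-out libraries. The groups were 1216 ± 80.9 and 440 ± 12.7 CPM (SD, n = 3 each), and the knock-out mean was 36.2% of the wild-type mean. Among counts of all 11 PYHIN rows of the table, the members held between 78.2% and 79.1% in the wild-type and between 74.6% and 75.5% in the knock-out.

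The other PYHIN genes showed whether the difference reached beyond the members. Of 10 other listed genes, 7 had a row and 6 were tested (edgeR, adjusted over all tested genes). Of the 6, 5 fell, 0 rose and 1, Ifi209, was not called. The shares were 83.3% lower and 0% higher, against 33.2% and 33.1% of all genes tested. The 6 had a median log2 fold change of -1.35, against 0.02 over all genes tested. With the choice of members made on this comparison, the remaining genes are not an independent set.

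Mndal, a close relative of Ifi203, stood at 209, 208 and 193 CPM in wild-type and 60.9, 65.0 and 65.8 CPM in knock-out libraries. Its log2 fold change was -1.67 (SE 0.0540, edgeR adjusted p = 5.54e-34). Per 100 counts of Ifi203, those of Mndal numbered 44.1 to 47.5 in the wild-type and 36.6 to 38.4 in the knock-out. Ifi207, another pyrin and HIN gene, went from 23.5, 27.6 and 27.6 CPM to 8.03, 5.19 and 5.67 CPM, a log2 fold change of -2.06 (SE 0.154, edgeR adjusted p = 9.01e-18). The value of Mndal lay within the range of the members, -1.84 to -1.40, and that of Ifi207 below it.

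Aim2, the receptor that starts the inflammasome on double-stranded DNA, differed far less. Wild-type libraries had 99.4, 85.3 and 84.4 CPM and knock-out libraries 72.9, 73.5 and 74.1 CPM. The groups did not overlap, and the log2 fold change was -0.29 (SE 0.0643, edgeR adjusted p = 7.64e-05). With upper-quartile scaling it was -0.13 and the call was lost (edgeR adjusted p = 0.0563).

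The rows with few counts were less certain. Ifi203-ps, annotated as a pseudogene, had 24, 17 and 17 counts in wild-type and 2, 5 and 2 in knock-out libraries, with a log2 fold change of -2.66 (SE 0.561, edgeR adjusted p = 4.09e-05). Ifi205 had 25, 36 and 36 counts against 3, 15 and 31. The groups overlapped, and its log2 fold change of -1.03 (SE 0.446, edgeR adjusted p = 0.0427) was not called in 7 of 12 alternatives. Among these were the fits without wild-type replicate 2 (-0.91), wild-type replicate 3 (-0.87), the first knock-out library (-0.57) and the second (-0.93), with edgeR adjusted p of 0.102, 0.0658, 0.231 and 0.159. Ifi209 had 24 to 33 counts against 15 to 19, a log2 fold change of -0.76 (SE 0.370, edgeR adjusted p = 0.0662). Ifi208, with 3, 16 and 10 counts against 1, 0 and 7, did not pass the filter. Ifi206, Ifi213 and Ifi214 had no row.

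The cluster spans positions 173349547 to 174031755 of chromosome 1 (mm10), 682 kb from Aim2 to Ifi205. In order along it, the tested genes had log2 fold changes of -0.29 at Aim2, -0.76 at Ifi209, -2.06 at Ifi207 and -1.72 at Ifi204 (173747293 to 173767069). Further on came -2.66 at Ifi203-ps, -1.67 at Mndal and -1.84 at Ifi211 (173896339 to 173913087). Ifi203 (173920400 to 173942866) and Ifi202b (173962569 to 173982844) both had -1.40, and Ifi205 closed the row with -1.03. By these estimates alone, the lowest values lay inside the cluster and the smallest differences at its Aim2 end. Ifi209, Ifi203-ps and Ifi205 had few counts (SE 0.370, 0.561 and 0.446), so a trend along the cluster is not shown.

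Flanking genes were counted with predicted genes (Gm and Rik names) and genes without a single RefSeq position left out. Of the 10 nearest tested genes on each side of the cluster, 6 rose and 7 fell. These were 30% and 35% of the 20, near the 33.1% and 33.2% of all genes tested. The median of the 20 was 0.09, against -0.19 for the 717 tested genes of chromosome 1. The nearest flanking gene before the cluster, Tagln2, an actin-binding protein gene 842 kb away, rose by 0.18 (SE 0.0407). Pigm, of glycolipid anchor synthesis, fell by 0.50 on the log2 scale (SE 0.0909), and Igsf8 had 0.18 (SE 0.0984, edgeR adjusted p = 0.101). After the cluster, Fh1 (fumarate hydratase), 1570 kb away, rose by 0.40 (SE 0.0640), Chml had 0.17 (SE 0.114, edgeR adjusted p = 0.190) and the exonuclease gene Exo1 rose by 0.97 (SE 0.113). The lowest value among the 20 flanking genes was -0.995, above that of each member. Upper-quartile scaling raised the count of higher genes among the 20 from 6 to 10.

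**Figure D3:**
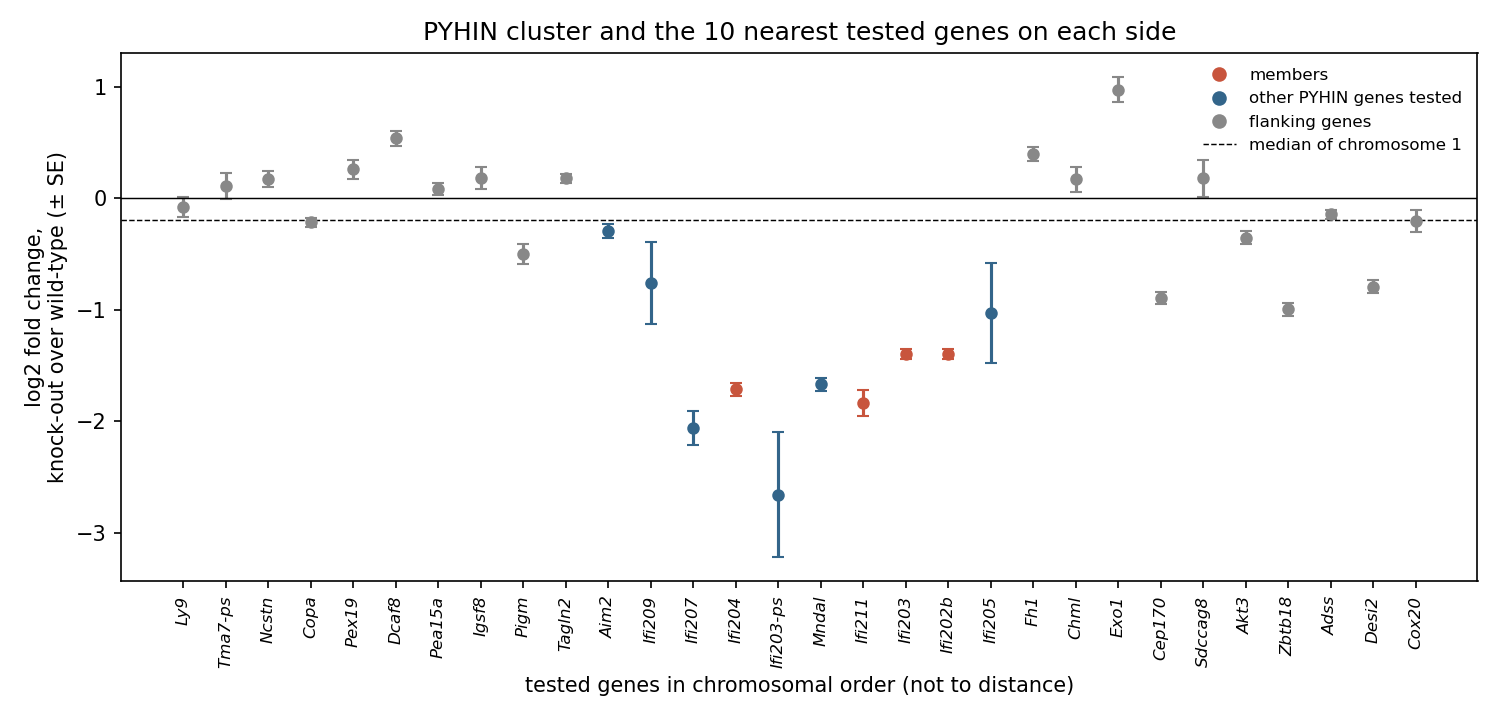
Log2 fold changes (knock-out over wild-type, with SE) of the tested PYHIN genes and the 10 nearest tested genes on each side. Predicted genes were left out of the flanks, and the order is chromosomal and not to distance. Red marks the members, blue other PYHIN genes, grey flanking genes, and the dashed line the chromosome median of -0.19. The members lie between -1.84 and -1.40 and the flanking genes between -0.995 and 0.97.

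Of 18 tested interferon receptor and signalling genes, which act upstream, 5 rose and 5 fell, with a median log2 fold change of 0.02. These were 27.8% in each direction, below the 33.1% and 33.2% of all genes tested. Among those that fell were Irf7 (-0.90, SE 0.0514), an amplifier of interferon responses, and the transcription factor genes Irf9 (-0.70, SE 0.0664) and Stat2 (-0.67, SE 0.0677). Irf7 stood at 179 ± 4.68 and 95.8 ± 4.88 CPM (SD, n = 3 each). Irf1, which binds related elements, rose from 22.5 ± 3.45 to 44.1 ± 2.99 CPM (SD, n = 3 each). The kinase gene Tyk2 rose (0.60, SE 0.138), Jak2 fell (-0.29, SE 0.0548), and the interferon gamma receptor genes Ifngr1 and Ifngr2 rose (0.30 and 0.38). Irf2 had -0.15 (SE 0.102, edgeR adjusted p = 0.195), and 0.0077 with upper-quartile scaling. Library size alone and upper-quartile scaling each raised the count of higher genes from 5 to 8.

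Interferon-stimulated genes outside the family were mostly lower. Of 19 classical ones tested, 15 fell and 2 rose, or 78.9% and 10.5% against 33.2% and 33.1% of all genes tested, with a median of -0.81. Usp18 (-1.40), Oas1a (-1.44), Mx2 (-1.55) and Rsad2 (-1.50) had values within the range of the members. Ifi44 had a lower one (-2.33), and Oasl2 (-1.23), the RNA sensor gene Ifih1 (-1.26) and the ubiquitin-like modifier gene Isg15 (-0.98) had higher ones. The 2 that rose were Ifi27 (0.89) and Ifit2 (0.31, edgeR adjusted p = 0.00344), the latter not called without the second knock-out library (0.22, edgeR adjusted p = 0.0624).

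Across the genome, genes with an ISRE core near the start were called in both directions. Of 353 tested genes outside the PYHIN family with a core in a window, 42.2% were called lower and 25.2% higher. Among all 9400 tested genes with a window these shares were 33.9% and 34.5%. The median log2 fold change of the 353 was -0.12, and no test was made of this difference.

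Of 14 tested DNA sensing and inflammasome genes, 7 rose and 5 fell, with a median of 0.19. These were 50% and 35.7%, beside 33.1% and 33.2% of all genes tested. The STING gene Tmem173 rose from 31.9 ± 1.88 to 46.2 ± 2.68 CPM (SD, n = 3 each) and Mavs, the RNA sensing adaptor, by 0.47, while Cgas, the cytosolic DNA sensor, fell by 0.66 on the log2 scale (SE 0.0911). Casp1, the protease that AIM2 activates, rose by 0.90 (SE 0.133), and its substrate Gsdmd, a pore-forming protein, by 1.51 (SE 0.1003). Pycard, the adaptor between AIM2 and caspase-1, had 0 to 4 counts in every library and was not tested. Among the rest, Trim30a, an interferon-induced ubiquitin ligase gene, fell by 0.87 (SE 0.0542), Casp4 by 0.98 and the sensor gene Nlrp3 by 1.75 on the log2 scale, and the nucleotide hydrolase gene Samhd1 rose by 0.45 (SE 0.0467). With the stricter filter 13 genes of the list were tested and 3 were called lower.

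Of 21 tested genes for reported protein partners of p202 and p204, 9 rose and 8 fell, with a median of 0.08. These were 42.9% and 38.1%, beside 33.1% and 33.2% of all genes tested. The Id genes, inhibitors of differentiation whose proteins p204 binds, rose together: Id1 from 7.96 ± 1.29 to 26.99 ± 1.17 CPM, Id2 from 20.8 ± 0.941 to 43.3 ± 4.55 CPM and Id3 from 9.56 ± 0.819 to 40.9 ± 0.737 CPM (SD, n = 3 each). Jun, an AP-1 subunit, Myc and the NF-kB subunit Rela fell by 1.32, 0.86 and 0.76 on the log2 scale. Runx2, a bone transcription factor, fell by 0.35 (SE 0.0888). Ubtf, the ribosomal RNA transcription factor, rose by 0.15 (SE 0.0464, edgeR adjusted p = 0.00479), a call lost without wild-type replicate 2 and without the third knock-out library (edgeR adjusted p = 0.0588 and 0.0563). Rb1, the retinoblastoma gene, had -0.12 (SE 0.0778, edgeR adjusted p = 0.167), with values of 0.00046 for library size alone and 0.036 for upper-quartile scaling; without wild-type replicate 2 it passed (-0.19, edgeR adjusted p = 0.0498). Trp53, encoding p53, had 0.09 (SE 0.0482, edgeR adjusted p = 0.0910). It passed with upper-quartile scaling (0.25), library size alone (0.21), the stricter filter (0.13) and without the first knock-out library (0.12).

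**Figure D4:**
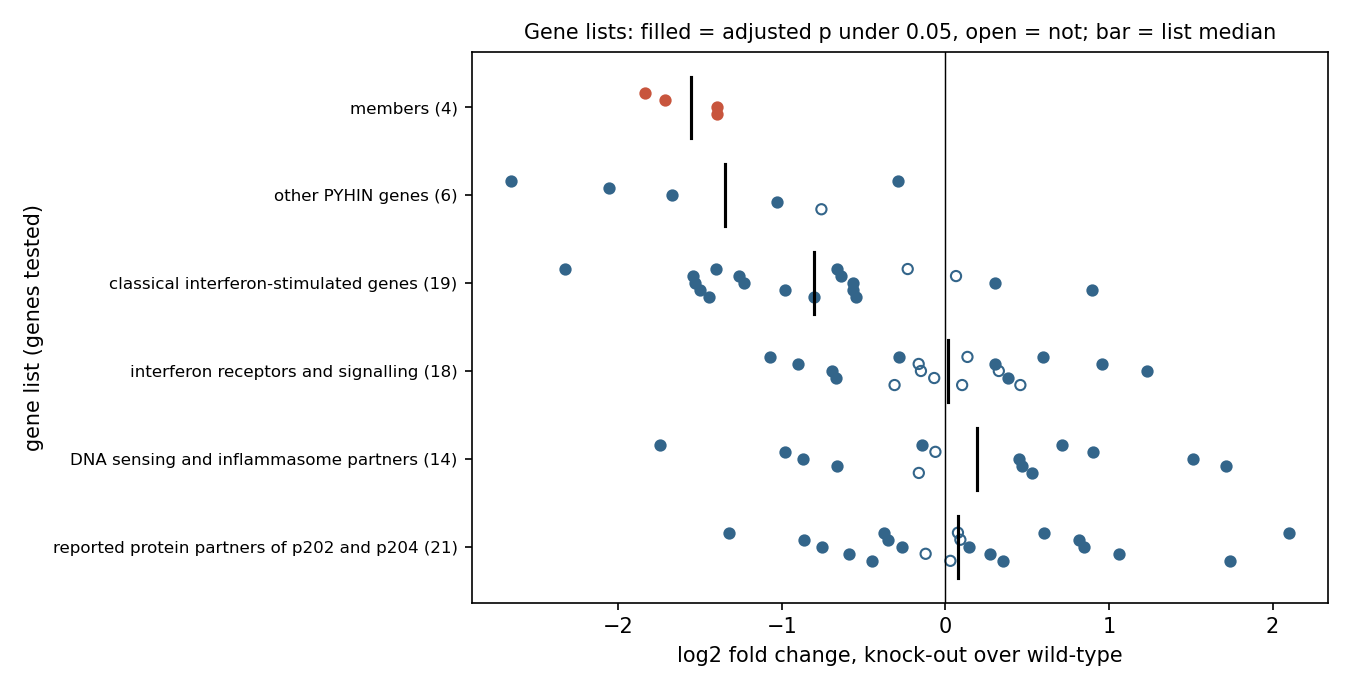
Each point is the log2 fold change (knock-out over wild-type) of 1 tested gene, filled where the edgeR adjusted p was under 0.05, and black bars are list medians. Medians were -1.56 for the members, -1.35 for other PYHIN genes, -0.81 for classical interferon-stimulated genes and between 0.02 and 0.19 for the other 3 lists drawn, which leave out the marker lists and flanking genes.

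With other members left out, the 3 genes with profiles nearest to each member lay on other chromosomes. Distance was Euclidean over the 6 libraries, between log2 CPM profiles centred on each gene's mean, among 10554 candidates. Predicted genes (Gm and Rik names) were not candidates. The same 6 libraries chose the members, so a near profile goes with a like log2 fold change (-1.40 in both Efnb2 and Ifi202b). Ifi202b and Ifi203 were 0.0665 apart, and Ifi204 and Ifi211 were 0.262 apart. No candidate was nearer to Ifi202b or Ifi203 than they were to each other, while the 3 nearest to Ifi204 were nearer to it than Ifi211. The nearest other genes to both Ifi202b and Ifi203 were Efnb2 (an ephrin ligand, 0.0897 and 0.108) and Epha2 (an ephrin receptor, 0.113 and 0.125), followed by Cxcl10 (0.135) and Tiam1 (0.131). For Ifi204 they were Dus2, Ascc2 and Epg5, at 0.187 to 0.219, and for Ifi211 Snai2, Smad7 and Ankrd1, at 0.270 to 0.283.

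The targeted gene, Kmt2c, ranged over 24.9 to 26.2 CPM with the wild-type and 11.2 to 16.0 CPM with the knock-out (log2 fold change -0.87, SE 0.129, edgeR adjusted p = 4.33e-08), and a count over the gene does not show the edit. Libraries held 9559658 to 13406013 counts. Of 20 immune cell markers, among them genes of the myeloid cells known to express this family, 11 had a row, with a summed level between 37.1 and 41.2 CPM for the wild-type and between 45.6 and 53.3 CPM for the knock-out. Of these, 5 were tested, of which 3 rose and 1 fell. The pan-leukocyte gene Ptprc had 1 count in each wild-type library and 2 to 4 in the knock-out, Lyz2 rose from 0.553 to 8.80 CPM, Itgax had 0 counts with the wild-type and 14 to 22 with the knock-out, and Csf1r fell by 1.19 on the log2 scale. The part of other cells in the results was not tested. Of 10 epithelial markers, 4 had a row: Krt18 rose from 38.8 to 111 CPM, Krt20 from 14.97 to 51.8 CPM and Krt8 from 0.132 to 2.39 CPM. The fourth, the villin gene Vil1, had 6, 1 and 3 counts against 3, 3 and 1 and was not tested. Epcam and Cdh1 were among the listed epithelial markers without a row.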

How the data were processed

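The authors deposited whole-number read counts per Ensembl gene for 6 libraries, not normalized. The tools listed per the submitters' processing notes include STAR, HTSeq and fastp, with the build mm10. Their roles, the annotation release and strand setting: not given in the sources used here. Symbols were found for 17650 of 17718 identifiers, and positions were taken from RefSeq (GRCm38.p6) by symbol. Genes were filtered with filterByExpr (minimum count 10, minimum total 15) and scaled with TMM factors. Differences were tested with edgeR 4.0.16 (R 4.3.3), using the quasi-likelihood F test, robust estimation and Benjamini-Hochberg adjustment across 13013 genes at 0.05, after a check of the code on simulated counts. SE values were derived from the F statistic.

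The members and gene lists were chosen with earlier results of these data known. Genes named are the 4 members, the other PYHIN genes, Kmt2c and members of each list (the 4 with the smallest p first, and 17 others set with the lists). Also named are the 3 nearest flanking genes on each side of the cluster. The 3 nearest profiles of each member (average log2 CPM of at least 1) are named too. Predicted genes were left out of the flanks and the profiles. Other genes named, and the count of genes with an ISRE core, were chosen after their values were seen. A planned comparison of protein sequences was not made. The values of 1 gene that the rule names are not reported here. No source says whether the libraries are separate cultures: p-values reflect how these libraries vary, possibly for technical reasons. The alternatives comprised other scalings and filters, DESeq2 1.42.0, limma voom (limma 3.58.1), each library left out in turn and removal of the chromosome median.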

Additional observations from a re-analysis of the deposited data

How the results depend on the processing

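All 10 tested PYHIN genes kept a log2 fold change below 0 in each fit that tested them, out of 13 alternatives. The members among them were chosen on this comparison in the same libraries, so nothing is read from this for them. Library size alone and upper-quartile scaling moved the median of all tested genes from 0.02 to 0.14 and 0.17, and the higher share of calls from 49.9% to 60.5% and 63.7%. With library size alone Ifi202b had -1.28, Ifi203 -1.27, Ifi204 -1.59 and the sum of the members -1.34, and with upper-quartile scaling Ifi202b had -1.24, Ifi203 -1.24, Ifi204 -1.56, Ifi211 -1.68 and the sum -1.31. With the median of chromosome 1 removed the members had -1.20, -1.20, -1.52 and -1.64. Calls of lower genes among other PYHIN genes went from 5 to 3 with upper-quartile scaling and with the stricter filter (50 counts in every library of 1 group), which tested fewer of them. Higher interferon signalling genes went from 5 to 8 under both of these scalings, and higher flanking genes from 6 to 10 with upper-quartile scaling. Lower DNA sensing genes went from 5 to 3 with the stricter filter, which tested 13 genes of that list instead of 14. Leaving out single libraries gave 1 to 2 higher classical interferon-stimulated genes. Directions changed for Irf2 with upper-quartile scaling (0.0077) and for Rb1 with library size alone (0.00046) and upper-quartile scaling (0.036), neither of which passed the test. The cause of these shifts was not tested. No paired analysis was possible because the knock-out columns carry no replicate number of the labels. With 9559658 counts in the shallowest library, 1 count is 0.105 CPM before TMM scaling, which limits Ifi205, Ifi208, Ifi209 and Ifi203-ps.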
